A study of Mus musculus with 2 samples.

Results

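The genes described here are 9 imprinted growth genes that lie outside the *Dlk1*-*Dio3* cluster, taken by symbol from the 33696 genes listed in both libraries: *H19*, *Igf2*, *Plagl1*, *Cdkn1c*, *Peg3*, *Mest*, *Grb10*, *Ndn* and *Zim1*. They were followed in single-cell RNA sequencing (scRNA-seq) libraries of mammary stroma from wild-type female C57BL/6 mice at puberty (4 weeks) and in virgin adults (9 weeks). Flow sorting had taken stroma without lineage markers and without CD24, meant to leave out blood, endothelial and epithelial cells. There was 1 library for each stage (both carry replicate number 2), and the labels give 2 females for a condition without saying whether both were pooled in a library, and the counts do not tell animals apart. The pubertal library held 21688 cell barcodes and 255274670 unique molecular identifiers (UMIs, each counting 1 captured transcript), and the adult library 23183 barcodes and 259549498 UMIs, with 145 barcode sequences occurring in both.

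An imprinted gene is transcribed mainly from the copy inherited from one parent. Many such genes set the pace of growth before and shortly after birth, paternally expressed members often favouring growth and maternally expressed ones often limiting it, and several are turned down as tissues mature. The mice were inbred, so the parental copy behind a transcript was not measured. *H19* is a maternally expressed noncoding RNA and *Igf2*, beside it, a paternally expressed growth factor. *Plagl1*, *Peg3* and *Zim1* encode zinc finger proteins, *Cdkn1c* encodes the cyclin-dependent kinase inhibitor p57, and *Grb10* encodes an adaptor that binds the insulin and IGF1 receptors and dampens their signal. *Mest* encodes a protein of the hydrolase family known from growing mesoderm and fat, and *Ndn* encodes necdin, of the MAGE family.

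The members are spread over 4 chromosomes in the RefSeq annotation of GRCm38.p6. On the minus strand of chromosome 7 lie *Zim1* (chr7:6674444-6696540) and *Peg3* (chr7:6703892-6730462), separated by 7351 bases with no overlap, followed by *H19* (chr7:142575530-142578146) and *Igf2* (chr7:142650768-142666816), with 72621 bases between them, and *Cdkn1c* (chr7:143458339-143461059). *Ndn* (chr7:62348277-62349928) is on the plus strand of the same chromosome. *Mest* is at chr6:30733506-30748466 on the plus strand, where its 3′ end overlaps *Copg2* on the opposite strand, *Plagl1* at chr10:13090832-13131694 on the plus strand, and *Grb10* at chr11:11930499-12037428 on the minus strand, the longest of the 9 at 106930 bases. Whether the counting used strand is not given in the sources used here, so reads of *Mest* and *Copg2* in their overlap may be shared.

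3 members host a microRNA, and these short products are shown because they are part of what an *H19*, *Igf2* or *Mest* transcript can give rise to. The microRNAs themselves were not measured by these poly(A)-based libraries. The miR-675 pair lies in an exon of *H19* (chr7:142577078-142577133), the miR-483 pair in an intron of *Igf2* (chr7:142654932-142654989) and the miR-335 pair in an intron of *Mest* (chr6:30741314-30741375). Mature sequences from RefSeq run 5′ to 3′ with the seed, bases 2 to 8, in capitals, and no seed is shared between them.
mmu-miR-675-5p: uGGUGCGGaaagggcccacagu
mmu-miR-675-3p: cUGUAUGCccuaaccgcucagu
mmu-miR-483-5p: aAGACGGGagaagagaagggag
mmu-miR-483-3p: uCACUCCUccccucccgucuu
mmu-miR-335-5p: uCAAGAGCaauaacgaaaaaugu
mmu-miR-335-3p: uUUUUCAUuauugcuccugacc

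The start sites of *Peg3* and *Zim1* are shown because this neighbouring pair had similar profiles across the cell subsets described below. Each window holds 300 bases around the RefSeq start, written along the gene's minus strand, with CG dinucleotides, the targets of DNA methylation, in capitals. The *Peg3* window (chr7:6730370-6730669) holds 13 CG and the *Zim1* window (chr7:6696383-6696682) holds 20, against a median of 7 over 32851 promoter windows. As many CG as in *Peg3* were found in 37.9% of windows, and as many as in *Zim1* in 26.5%. Methylation was not measured here.
Peg3: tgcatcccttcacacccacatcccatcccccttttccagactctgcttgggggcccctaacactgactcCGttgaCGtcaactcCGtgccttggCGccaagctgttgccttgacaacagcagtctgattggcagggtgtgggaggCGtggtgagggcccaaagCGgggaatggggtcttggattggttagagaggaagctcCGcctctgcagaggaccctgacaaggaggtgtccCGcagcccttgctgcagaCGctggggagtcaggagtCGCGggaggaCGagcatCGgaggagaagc
Zim1: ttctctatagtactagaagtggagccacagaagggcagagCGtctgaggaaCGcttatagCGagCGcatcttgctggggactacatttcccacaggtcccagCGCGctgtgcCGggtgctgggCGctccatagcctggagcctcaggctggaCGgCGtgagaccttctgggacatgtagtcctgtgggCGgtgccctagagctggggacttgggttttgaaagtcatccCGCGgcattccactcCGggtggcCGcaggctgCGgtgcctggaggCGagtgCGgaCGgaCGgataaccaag

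Levels are given as CPM, the counts of a gene scaled to 1000000 UMIs summed over the cells of a gate. CPM is compared between libraries and gates for 1 gene, not between genes. Cells with at least 500 genes and at most 10% mitochondrial UMIs were kept (21534 at puberty and 22972 in the adult), and those with at least 1 UMI of *Pdgfra*, a fibroblast receptor, numbered 18878 (87.7%) and 20999 (91.4%). The 6 fibroblast markers summed to 32284 and 27168 CPM in these cells and the 6 pericyte and smooth muscle markers to 69.6 and 43.4 CPM. With 1 library a stage there is no replicate check and no test. Intervals in brackets are exact 95% limits of counting error and do not cover the spread between animals or between cells.

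Within *Pdgfra*+ cells, 5 overlapping marker subsets were read. Cells with both *Pi16* and *Dpp4*, markers of a fibroblast progenitor state, made up 74.1% of *Pdgfra*+ cells at puberty and 42.2% in the adult. Cells with *Gdf10* or *Fmo2* were 39.5% and 47.9%, those with *Thbs4* or *Bmp5* 4.91% and 14.8%, those with at least 2 UMIs of the fatty acid binding protein gene *Fabp4* 9.42% and 12.2%, and those with *Crabp1*, a retinoic acid binding protein gene, 1.53% and 12.7%. Of the pubertal *Gdf10* or *Fmo2* cells 55.9% also carried *Pi16* and *Dpp4*, so subsets are not independent groups. A further gate, cells without *Pdgfra* but with *Myh11* or *Rgs5*, here called mural cells, held 783 and 457 cells.

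Across all *Pdgfra*+ cells, *H19* and *Plagl1* were the members with the lowest adult level relative to puberty that could be compared. *H19* stood at 65.2 CPM (64.2 to 66.2) at puberty and 26.1 CPM (25.5 to 26.8) in the adult, an adult over puberty ratio of 0.40 (0.389 to 0.412). *Plagl1* stood at 229 and 114 CPM, a ratio of 0.499 (0.492 to 0.506). These were the 2 members of the 8 compared that were at least 1.5-fold lower in the adult, where 5.09% of 8645 genes of at least 10 CPM were, and 0 members were at least 1.5-fold higher, where 12% of genes were. The ninth member, *Igf2*, was below that level.

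**Figure D1:**
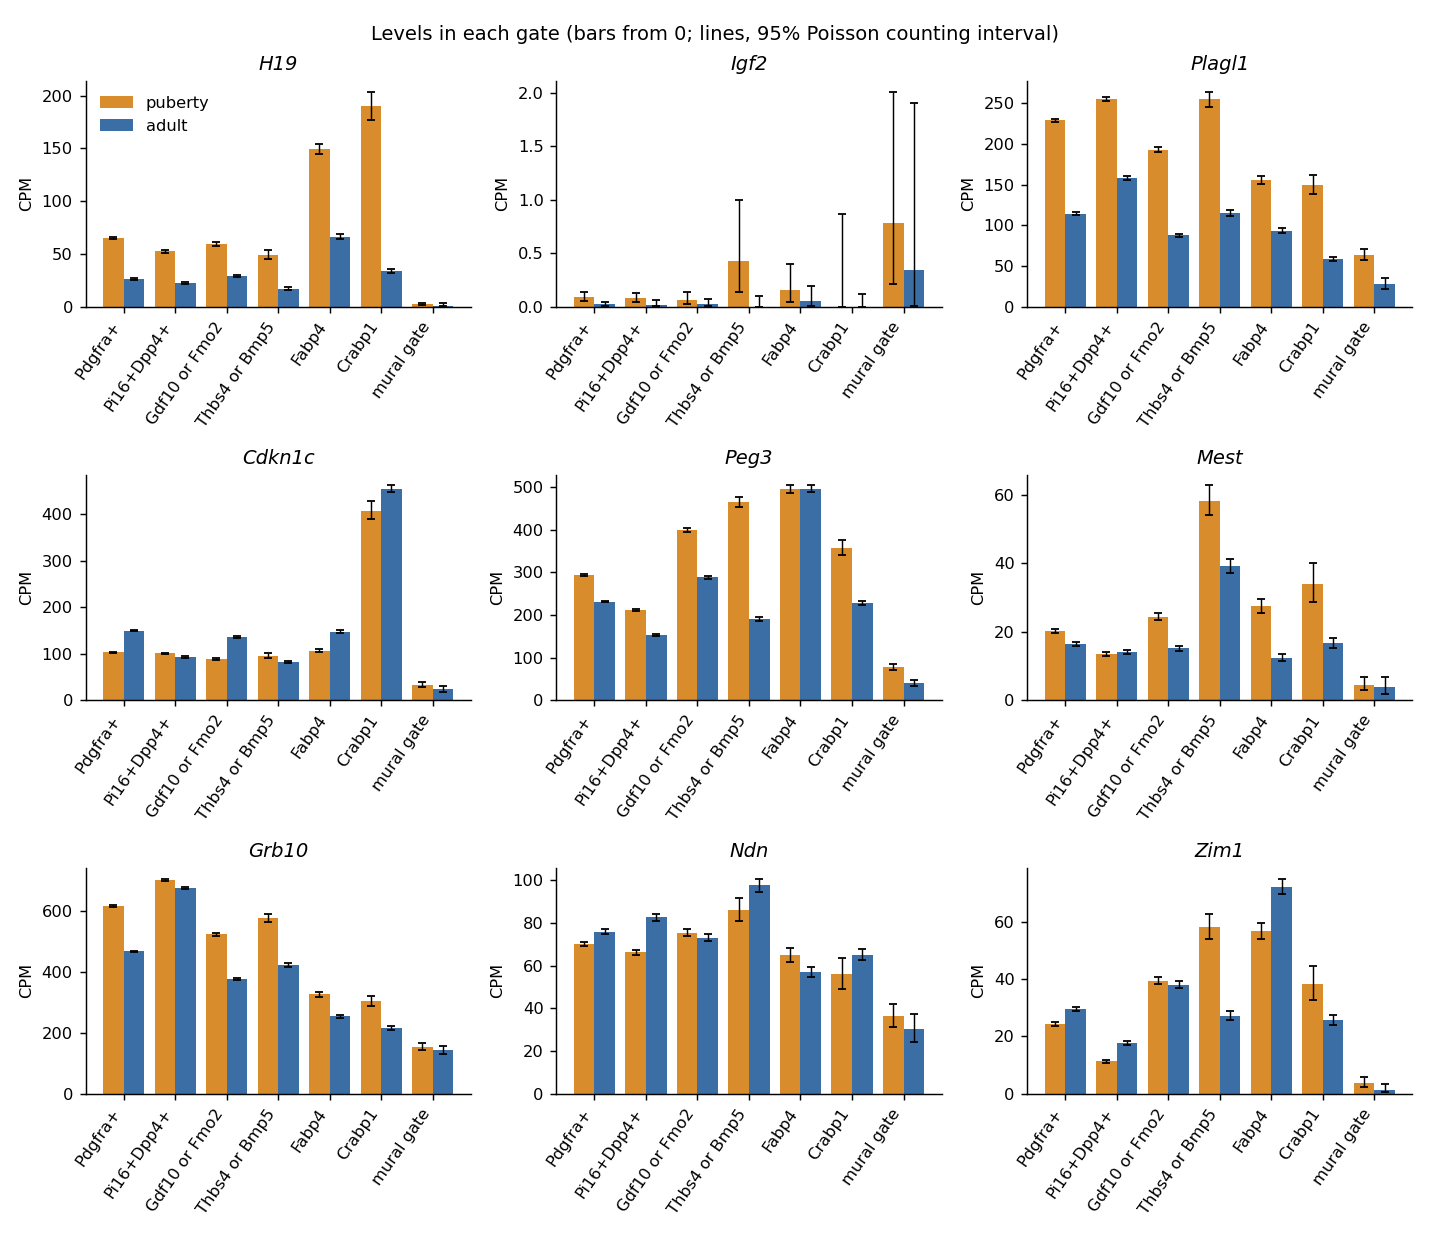
CPM (vertical axis, from 0) of each member in all *Pdgfra*+ cells, 5 marker subsets and the mural gate, in the pubertal (orange) and adult (blue) library, with 95% Poisson counting intervals. The adult bars of *H19* and *Plagl1* are lower in every gate, *Cdkn1c* peaks in *Crabp1* cells at 408 and 455 CPM, and *Igf2* stays below 1 CPM. The mural *H19* bars rest on 11 and 3 UMIs, a ratio of 0.474 with an interval from 0.0849 to 1.79.

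The other members differed less between the libraries. *Grb10* was at 616 CPM at puberty and 466 CPM in the adult, a ratio of 0.758 (0.752 to 0.763). *Peg3* was at 293 and 231 CPM with a ratio of 0.789 (0.781 to 0.798), and *Mest* at 20.3 and 16.3 CPM with a ratio of 0.806 (0.772 to 0.840). All 3 were lower in the adult by less than 1.5-fold. With equal weight for 6 disjoint strata of *Pdgfra*+ cells, *Mest* (0.443) and *Peg3* (0.638) were past it.

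*Cdkn1c* was the member furthest on the adult side, at 103 CPM at puberty and 149 CPM in the adult, a ratio of 1.45 (1.42 to 1.47). *Zim1* was at 24.2 and 29.4 CPM, a ratio of 1.21 (1.17 to 1.26), which turned to 0.772 when the 6 strata had equal weight. *Ndn* was at 70.0 and 75.8 CPM, a ratio of 1.08 (1.06 to 1.11), which turned to 0.982 with TMM scaling, a scaling that sets most genes level between the libraries. The median log2 ratio of the 8 members was -0.33 against 0.13 over all 8645 genes. TMM moved the median over all genes to -0.02, and the genes at least 1.5-fold higher and lower in the adult then made up 7.89% and 7.56% instead of 12% and 5.09%.

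Taken subset by subset, more members were lower in the adult than higher. In *Pi16*+*Dpp4*+ cells 2 members were at least 1.5-fold lower, *H19* and *Plagl1*, where 3.86% of genes were, and 1 was higher, *Zim1*, where 9.46% were. In *Gdf10* or *Fmo2* cells 3 were lower, *Mest* joining at 0.623, beside 5.72% of genes, and *Cdkn1c* was higher beside 10.7%. In *Thbs4* or *Bmp5* cells 4 were lower, *H19*, *Plagl1*, *Peg3* and *Zim1*, beside 5.43% of genes, and 0 higher beside 6.21%. *Fabp4* cells had 3 lower, *H19*, *Plagl1* and *Mest*, beside 5.36%, and 0 higher beside 8.12%. *Crabp1* cells had 4 lower, *H19*, *Plagl1*, *Mest* and *Peg3*, beside 6.45%, and 0 higher beside 8.27%. The same 4 were lower in the 706 and 2507 *Pdgfra*+ cells of no subset, beside 6.85% of genes. The 5 members of at least 10 CPM in mural cells gave 2 lower, *Plagl1* and *Peg3*, beside 6.17%, and 0 higher beside 17.0%.

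*H19*, the noncoding RNA, had a lower adult level in all 5 subsets, with ratios between 0.176 in *Crabp1* cells and 0.484 in *Gdf10* or *Fmo2* cells. Of the 5 subsets its pubertal level was highest in *Crabp1* cells (190 CPM, 177 to 204) and *Fabp4* cells (150 CPM, 145 to 154). It was lowest in *Thbs4* or *Bmp5* cells (49.1 CPM, 45.2 to 53.3). The adult order differed, with *Fabp4* cells first at 66.4 CPM and *Crabp1* cells at 33.6 CPM, close to the 28.7 CPM of *Gdf10* or *Fmo2* cells. Against the other *Pdgfra*+ cells of its library, *H19* was 2.72-fold higher in *Fabp4* cells at puberty and 3.51-fold higher in the adult. In *Crabp1* cells the ratio was 3.02 at puberty and 1.34 in the adult, so only the pubertal one was past 1.5-fold. A high pubertal level was not particular to these subsets. In *Pdgfra*+ cells of no subset *H19* was at 193 and 28.9 CPM, an adult over puberty ratio of 0.150 (0.136 to 0.166). In *Pdgfra*+ cells with at least 2 UMIs of *Dlk1* it was at 180 and 31.9 CPM, a ratio of 0.177.

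*H19* transcripts were held by few cells. The top 1% of *Pdgfra*+ cells held 34.8% of all *H19* UMIs at puberty and 56.0% in the adult, against 2.94% and 3.04% for *Dcn*, a gene of nearly all fibroblasts. At least 10 *H19* UMIs were found in 461 pubertal cells (2.44%) and 168 adult cells (0.800%), with up to 106 and 73 UMIs in a single cell. Of these high cells 30.2% and 38.7% were in the *Fabp4* subset, which holds 9.42% and 12.2% of *Pdgfra*+ cells. Their median depth was 14074 UMIs at puberty, above the 12187 of all *Pdgfra*+ cells, and 15996 UMIs in the adult, above 11265.

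Cells were also thinned at random to 3000 UMIs each, which sets depth equal and leaves out 336 pubertal and 426 adult *Pdgfra*+ cells. The share with an *H19* UMI was then 8.10% in the pubertal library (7.71 to 8.50) and 3.14% in the adult library (2.91 to 3.39), and 15.2% and 6.73% without thinning. Mural cells gave 0.550% and 0.535%, at median unthinned depths of 6334 and 6126 UMIs. The whole mural gate held only 11 and 3 *H19* UMIs before thinning. The shares in *Pdgfra*+ cells were above the mural shares in both libraries. Free RNA was not measured, and its part in the mural shares was not tested.

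*Igf2* was close to absent from the counts. It had 21 UMIs among 236676546 at puberty and 5 among 247538165 in the adult in *Pdgfra*+ cells, that is 0.0887 CPM (0.0549 to 0.136) and 0.0202 CPM (0.00656 to 0.0471), a ratio of 0.228 (0.0671 to 0.620). No cell held more than 1 *Igf2* UMI. Mural cells held 4 and 1 UMIs, and the cells with skeletal muscle markers described below 2 and 2.

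**Figure D2:**
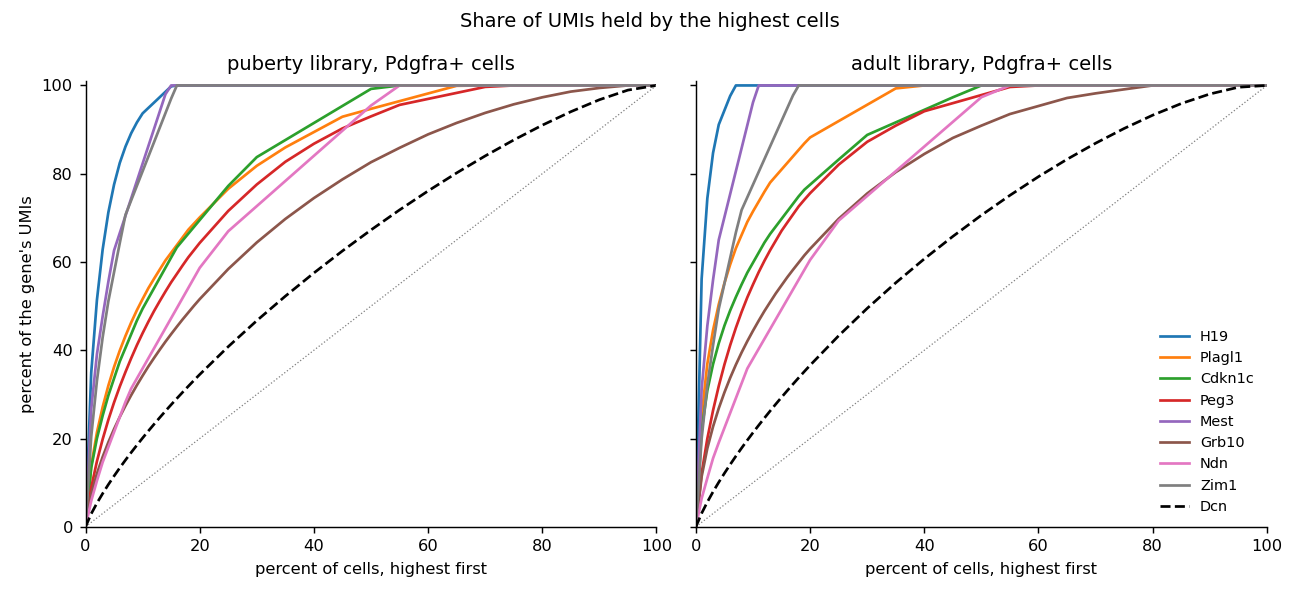
Cumulative percent of a gene's UMIs (vertical axis) held by *Pdgfra*+ cells ranked from the highest count (horizontal axis, percent of cells), for 8 members and *Dcn* (dashed), in each library. The *H19* curve climbs fastest, with 34.8% and 56.0% of UMIs in the top 1% of cells, and *Ndn* is among the slowest at 5.84% and 6.38%.

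Of the zinc finger genes, *Plagl1* had a lower adult level in every subset, with ratios of 0.621 (0.610 to 0.631) in *Pi16*+*Dpp4*+ cells, 0.601 in *Fabp4* cells, 0.453 in *Gdf10* or *Fmo2* cells, 0.451 in *Thbs4* or *Bmp5* cells and 0.392 (0.358 to 0.429) in *Crabp1* cells. All 5 lay past 1.5-fold. It was also at 63.5 and 27.9 CPM in mural cells, a ratio of 0.440 (0.341 to 0.562). Fibroblast markers in that gate summed to 4867 and 2526 CPM and epithelial markers to 34.9 and 610 CPM, and their part in the ratio was not tested. Thinned shares of *Pdgfra*+ cells with *Plagl1* were 34.9% and 17.2%, beside 8.67% and 4.28% of mural cells.

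*Plagl1* was higher in *Pi16*+*Dpp4*+ cells than in other *Pdgfra*+ cells, 256 against 143 CPM at puberty and 159 against 72.3 CPM in the adult, which are ratios of 1.79 and 2.19. There were 1246 pubertal cells (6.60%) and 568 adult cells (2.70%) with at least 10 *Plagl1* UMIs. Of them 88.0% and 75.4% carried *Pi16* and *Dpp4*, beside 74.1% and 42.2% of all *Pdgfra*+ cells. Their median depth was 13678.5 and 13948.5 UMIs, above the 12187 and 11265 of all *Pdgfra*+ cells. The part of depth in these shares was not tested.

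*Peg3* and *Zim1* shared a profile that ran the other way. In *Pi16*+*Dpp4*+ cells *Peg3* was at 212 CPM at puberty and 153 CPM in the adult, 0.377 and 0.497 of its level in other *Pdgfra*+ cells, and *Zim1* was at 11.2 and 17.6 CPM, 0.166 and 0.434 of that level. These 2 members were lower and *Grb10* and *Plagl1* higher past 1.5-fold in both libraries, where 8.69% of genes were lower and 7.29% higher. In *Gdf10* or *Fmo2* cells *Peg3* (ratios 1.85 and 1.68) and *Zim1* (2.94 and 1.87) were the 2 members past the fold, where 1.83% of genes were higher in both libraries. Lower there were 0 members, beside 1.84% of genes.

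*Fabp4* cells had the highest *Peg3* level of the 5 subsets, 496 CPM (488 to 505) at puberty and 497 CPM (490 to 504) in the adult. The 95% interval of the ratio between the libraries was 0.979 to 1.02, while in *Thbs4* or *Bmp5* cells *Peg3* was at 466 and 191 CPM, a ratio of 0.409 (0.395 to 0.424). *Zim1* in *Fabp4* cells was at 56.7 and 72.2 CPM, and in *Thbs4* or *Bmp5* cells at 58.1 and 27.1 CPM. *H19*, *Peg3* and *Zim1* were thus the 3 members higher in *Fabp4* cells than in other *Pdgfra*+ cells past 1.5-fold in both libraries, against 3.70% of genes. *Grb10* was the 1 member lower there, against 5.12% of genes.

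**Figure D3:**
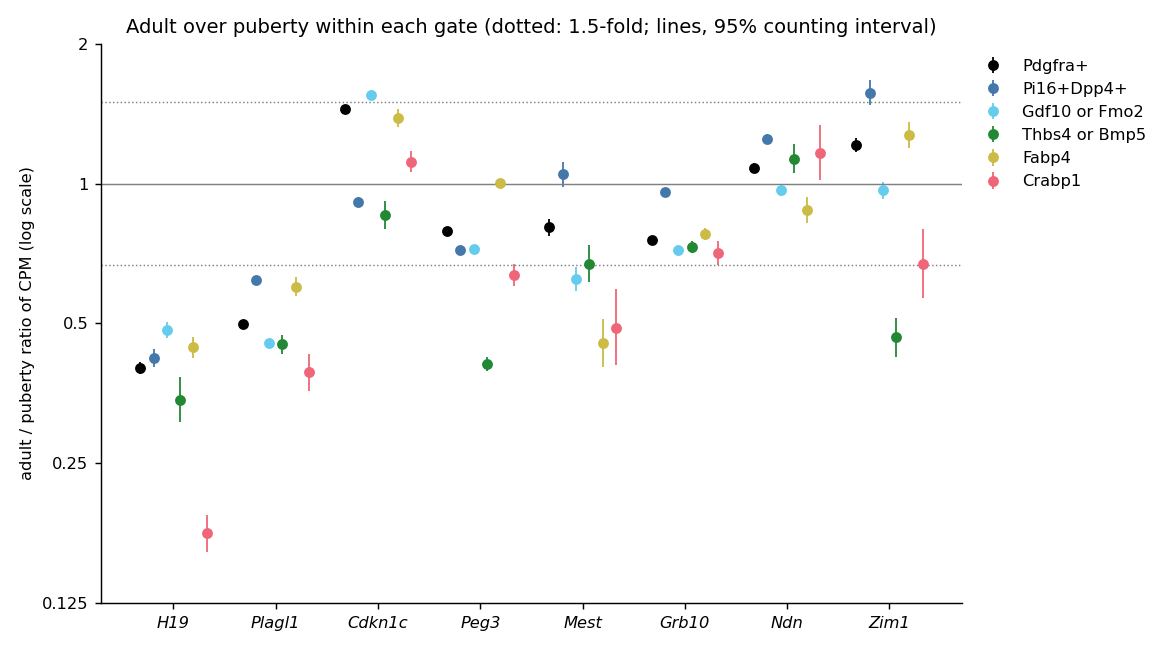
Adult over puberty ratio of CPM (vertical axis, log scale) for 8 members in all *Pdgfra*+ cells and 5 marker subsets (colours), with 95% counting intervals and dotted lines at 1.5-fold. *H19* and *Plagl1* lie below 0.667 in every subset, *Peg3* is lowest at 0.409 in *Thbs4* or *Bmp5* cells, and *Zim1* from 0.467 to 1.57.

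*Cdkn1c*, the cell cycle inhibitor gene, stood out in *Crabp1* cells. It was at 408 CPM (389 to 428) at puberty and 455 CPM (448 to 463) in the adult, 4.18-fold and 4.42-fold the level in other *Pdgfra*+ cells, and the 1 member higher there in both libraries, where 9.15% of genes were. The thinned share of *Crabp1* cells with *Cdkn1c* was 55.9% and 50.6%, against 21.6% and 25.1% of all *Pdgfra*+ cells and 7.43% and 7.49% of mural cells. Its level in the other 4 subsets lay between 81.6 and 148 CPM. The adult over puberty ratio within *Crabp1* cells was 1.12 (1.06 to 1.17), against 1.45 over all *Pdgfra*+ cells, among which *Crabp1* cells went from 289 to 2672. It was 1.55 in *Gdf10* or *Fmo2* cells and 1.39 in *Fabp4* cells. In *Pi16*+*Dpp4*+ cells it was 0.914 and in *Thbs4* or *Bmp5* cells 0.856. With equal weight for 6 strata the ratio over all *Pdgfra*+ cells was 1.18. The part of the *Crabp1* share in that ratio was not tested.

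Cells with at least 10 *Cdkn1c* UMIs numbered 229 at puberty and 597 in the adult. *Crabp1* cells made up 24.5% of them at puberty and 64.8% in the adult, while the *Crabp1* share of all *Pdgfra*+ cells was 1.53% and 12.7%. Within *Crabp1* cells the share with 10 or more was 19.4% and 14.5%, lower in the adult. In the 47 and 80 *Pdgfra*+ cells that held 3 or more of 12 cell cycle genes, *Cdkn1c* was at 139 and 136 CPM, so it was counted in cycling cells as well.

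*Grb10*, the insulin and IGF receptor adaptor, had the highest level of the 5 subsets in *Pi16*+*Dpp4*+ cells, 701 CPM (697 to 705) at puberty and 675 CPM (670 to 679) in the adult, 2.11-fold and 2.52-fold other *Pdgfra*+ cells. The ratio between the libraries within this subset was 0.962, nearer to 1 than in the other 4 subsets (0.709 to 0.779). Of the 5 subsets *Grb10* was lowest in *Crabp1* cells, at 303 and 215 CPM, 0.488 and 0.427 of other *Pdgfra*+ cells. *Grb10* and *Plagl1* were the 2 members lower in *Crabp1* cells past the fold in both libraries, against 8.93% of genes. Of cells with at least 10 *Grb10* UMIs 93.3% and 82.0% carried *Pi16* and *Dpp4*, beside 74.1% and 42.2% of all *Pdgfra*+ cells. The median depth of these high cells was 13739 and 14325 UMIs, above 12187 and 11265, and its part was not tested. Whether reads in introns were counted is not given in the sources used here, which bears most on so long a gene.

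Of the 5 subsets *Mest* was highest in *Thbs4* or *Bmp5* cells, at 58.3 CPM (54.0 to 62.8) at puberty and 39.2 CPM (37.3 to 41.3) in the adult. These were 3.19-fold and 3.26-fold the level in other *Pdgfra*+ cells, and *Mest* was the 1 member higher past the fold there, where 3.09% of genes were. Lower were 0 members, beside 2.37% of genes. Its level in *Fabp4* cells was 27.4 and 12.4 CPM and in *Pi16*+*Dpp4*+ cells 13.4 and 14.0 CPM. In *Pdgfra*+ cells with at least 2 UMIs of *Dlk1*, the imprinted gene that gives the *Dlk1*-*Dio3* cluster its name, *Mest* was at 89.1 and 102 CPM, 4.61-fold and 6.48-fold the other cells. It was the 1 member past the fold in those 245 and 133 cells in both libraries, where 2.91% of genes were higher and 2.41% lower.

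*Ndn* varied least of the 8 among the 5 subsets. It lay between 55.9 CPM in *Crabp1* cells and 86.1 CPM in *Thbs4* or *Bmp5* cells at puberty, and between 57.0 CPM in *Fabp4* cells and 97.6 CPM in *Thbs4* or *Bmp5* cells in the adult. No subset differed from the other *Pdgfra*+ cells by 1.5-fold. No cell held 10 or more *Ndn* UMIs.

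In mural cells all 8 compared members were at least 1.5-fold lower than in *Pdgfra*+ cells in both libraries, where 19.8% of genes were lower and 23.4% higher. The ratios to *Pdgfra*+ cells ran from 0.0331 for *H19* to 0.518 for *Ndn* at puberty and from 0.0392 for *H19* to 0.40 for *Ndn* in the adult. *H19* had 11 and 3 UMIs there, so its mural ratio rests on few counts. The 6 mural markers summed to 15321 and 13960 CPM in this gate, but *Myh11* (7105 and 6424 CPM) and *Rgs5* (396 and 1425 CPM) define it. Of the markers not used by the gate, *Acta2* was at 7041 and 5244 CPM and *Notch3* at 404 and 493 CPM. *Mcam* was at 241 and 220 CPM and *Cspg4* at 134 and 154 CPM. The 6 fibroblast markers also summed to 4867 and 2526 CPM, with *Pdgfra* at 0 by the gate. The 5 epithelial markers summed to 34.9 CPM at puberty and 610 CPM in the adult, and the part of these cells in the mural values was not tested.

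Cells carrying at least 3 of 5 skeletal muscle markers (*Pax7*, *Myf5*, *Myod1*, *Des*, *Chodl*), 59 and 141 in number, were a second place of high counts. *Mest* was at 421 CPM (177 UMIs) at puberty and 61.4 CPM (58 UMIs) in the adult, 20.9-fold and 3.77-fold *Pdgfra*+ cells. *Peg3* was at 921 and 759 CPM, *Zim1* at 80.9 and 78.3 CPM and *H19* at 124 and 49.7 CPM. Together 4 members were higher past 1.5-fold in both libraries, where 18.0% of genes were, and *Ndn* was lower (0.510 and 0.251), where 17.3% of genes were. *Cdkn1c* had 163 UMIs in the adult cells, 133 of them in a single cell.

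The members were also compared cell by cell at 3000 UMIs. At least 1 member was found in all but 5.31% of pubertal and 13.1% of adult *Pdgfra*+ cells, with a median of 2 members in both. *Peg3* and *Zim1* occurred together in 839 pubertal and 942 adult cells, 1.78 and 2.03 times the number that independent detection would give. Among the other pairs found together more often were *H19* with *Zim1* (1.75 and 1.99), *H19* with *Cdkn1c* (1.53 and 1.35), *Mest* with *Zim1* (2.21 and 1.23), *H19* with *Peg3* (1.19 and 1.37) and *Peg3* with *Mest* (1.34 and 1.14). *H19* and *Plagl1*, the members with the lowest adult levels relative to puberty, gave 1.04 and 1.14.

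Since subsets differ in these genes, the ratio was also taken inside each subset for pairs chosen after their values were seen. For *Peg3* with *Zim1* it was above 1 in all 5 subsets of both libraries, from 1.32 in pubertal *Thbs4* or *Bmp5* cells to 2.27 in adult *Pi16*+*Dpp4*+ cells. For *H19* with *Zim1* it was 1.17 and 1.19 in *Fabp4* cells and 2.38 and 1.90 in *Pi16*+*Dpp4*+ cells. For *Mest* with *Zim1* it was 1.44 to 1.75 at puberty, below the 2.21 over all *Pdgfra*+ cells, and 1.06 to 1.92 in the adult. For *H19* with *Cdkn1c* it was 1.20 to 2.00 and 1.24 to 1.36, and for *Plagl1* with *Grb10* 0.964 to 1.27 and 1.08 to 1.19. Subsets with too few cells expected to hold both were left out. These are descriptions within 2 libraries and carry no test.

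**Figure D4:**
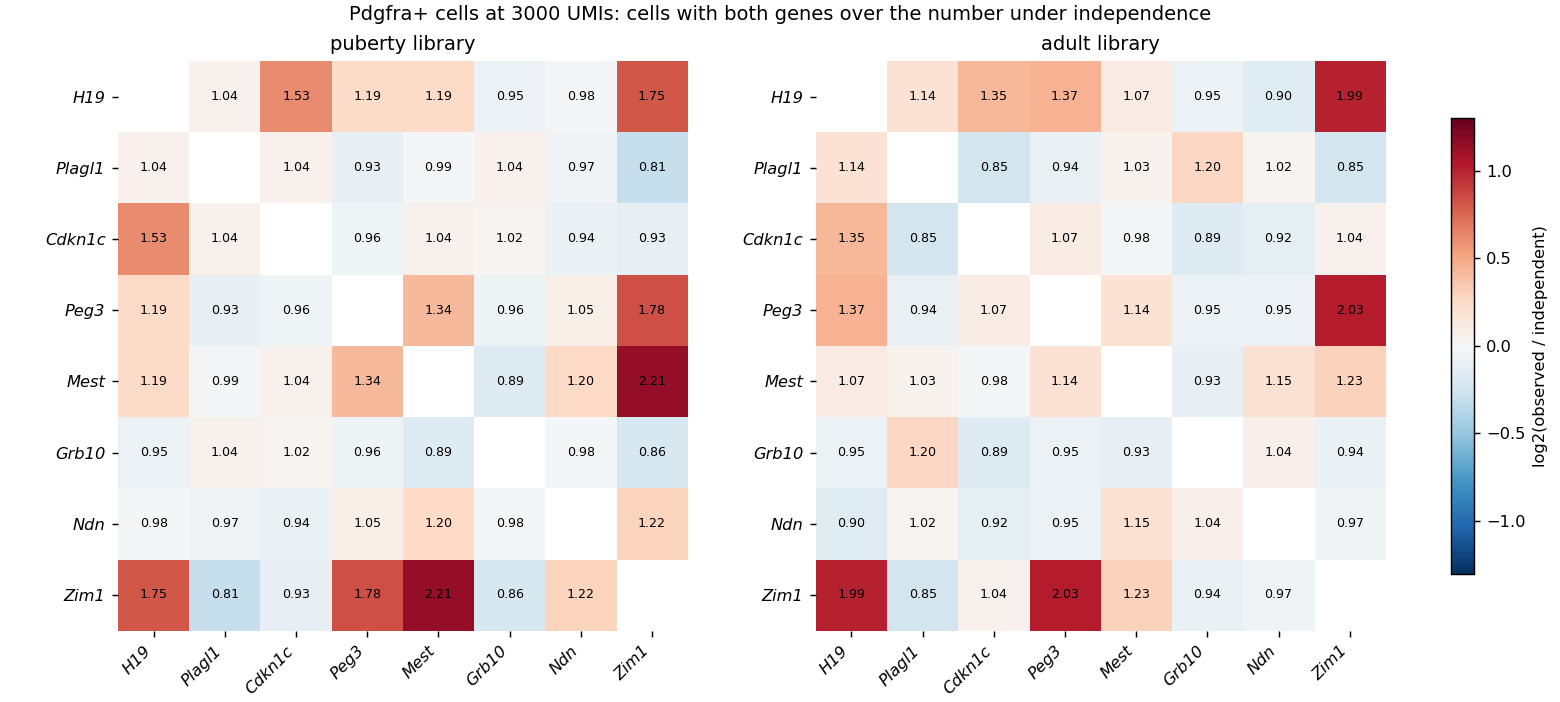
Number of *Pdgfra*+ cells with both genes of a pair over the number under independent detection, at 3000 UMIs a cell (colour, log2; printed numbers, the ratio), in each library. *Zim1* pairs with *Peg3* (1.78 and 2.03) and *H19* (1.75 and 1.99) are above 1 in both panels, and *H19* with *Plagl1* stays near 1 (1.04 and 1.14).

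The genes whose profile was most like each member were sought over 12 points, the 5 subsets and the mural gate in both libraries, by Pearson's r of log2(CPM + 1) among 10360 genes. These points share cells and libraries, and all members are low at the mural points, so the values only describe likeness. *Plagl1* was nearest to *Rian* (r = 0.983), a noncoding RNA of the *Dlk1*-*Dio3* cluster, then *Me1* and *Rpl9-ps6*. *Peg3* was nearest to *Arl13b* (0.980), *Zim1* (0.969) and *Noct* (0.962). *Grb10* was nearest to *Dact1* (0.988), *Nrcam* and *Ptgs2os*, *Cdkn1c* to *Svbp* (0.987), *9330154J02Rik* and *Slc25a20*, *Ndn* to *Itgbl1* (0.985), *Dusp1* and *Ms4a4d*, and *Mest* to *Morc4* (0.953), *Jmjd1c* and *Setbp1*. *H19*, *Igf2* and *Zim1* had fewer than 10 UMIs in at least 1 point, so no neighbours were sought for them. That minimum was not set for the neighbours themselves, so *Zim1* could still be listed beside *Peg3*.

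From a list of 42 other imprinted genes outside the *Dlk1*-*Dio3* cluster, the 40 found by symbol in both libraries were counted in the same way. Of these, 18 reached 10 CPM in *Pdgfra*+ cells, with a median log2 ratio of 0.18 against 0.13 over all genes. 1 of the 18 was at least 1.5-fold higher in the adult, *Rasgrf1*, an exchange factor for Ras, at 1.88 and 17.1 CPM (ratio 9.14, 8.28 to 10.1), and 0 were lower, where 12% and 5.09% of all genes were. With equal weight for 6 strata the *Rasgrf1* ratio was 2.19. In *Crabp1* cells *Rasgrf1* was 28.5-fold and 4.38-fold the other *Pdgfra*+ cells. The most abundant of the list, *Gnas*, which encodes a G protein subunit, was at 1055 and 1191 CPM, and *Airn*, the noncoding RNA antisense to *Igf2r*, at 661 and 690 CPM.

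Genes around IGF signalling were counted because *Igf2* and *Grb10* act on that pathway. Of 17 listed genes 15 reached 10 CPM, with a median log2 ratio of 0.11, and 4 were at least 1.5-fold higher in the adult, where 12% of all genes were. These were the IGF binding protein genes *Igfbp2* (3.50 and 30.4 CPM, ratio 8.70) and *Igfbp7* (1.57), the protease gene *Pappa* (1.86), which cuts IGF binding proteins, and the insulin receptor gene *Insr* (1.59). In *Crabp1* cells *Igfbp2* was 70.9-fold and 4.25-fold the other *Pdgfra*+ cells. Lower were 2, beside 5.09% of all genes, *Igfbp3* (402 and 156 CPM, ratio 0.387) and *Igf2bp2*, which encodes an RNA-binding protein (91.7 and 35.9 CPM, ratio 0.391). *Igf1*, the IGF that was counted in quantity in these cells, was at 282 and 267 CPM, and *Igf2r*, the receptor that clears IGF2, at 119 and 120 CPM. With TMM *Insr* (1.44) and *Igfbp7* (1.43) were no longer past 1.5-fold. With equal weight for 6 strata 0 of the list were higher past the fold, *Igfbp2* turning to 0.894 and *Pappa* to 0.925, and 3 were lower, *Igf1* (0.604) joining.

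Of 14 cyclin-dependent kinase inhibitors and partners 7 reached 10 CPM, with a median log2 ratio of 0.32. The inhibitor gene *Cdkn2c* (9.22 and 16.2 CPM, ratio 1.75) and the cyclin gene *Ccnd3* (37.6 and 60.3 CPM, ratio 1.60) were at least 1.5-fold higher in the adult, and 0 were lower, where 12% and 5.09% of all genes were. *Cdkn1a*, which encodes the p57 relative p21, was at 479 and 320 CPM, a ratio of 0.668 (0.662 to 0.674). With TMM *Ccnd3* (1.45) was no longer past 1.5-fold and *Cdkn1a* (0.606) was, and with equal weight for 6 strata 0 of the list were past it in either direction. In *Crabp1* cells *Cdkn1a* was at 0.348 and 0.392 of its level in the other *Pdgfra*+ cells, where *Cdkn1c* was at 4.18 and 4.42 times.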

How the data were processed

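For each of 2 libraries the authors deposited raw UMI counts as a filtered matrix of genes by barcodes. Per the file headers these came from Cell Ranger 8.0.1, and the submitters' processing notes name mm10. The labels name the GEM-X 3′ v4 kit. They and the headers were followed where the study's methods differ (kit, software version, age at puberty). Of 33696 gene identifiers 32012 are in GENCODE M21, and coordinates and sequences are those of RefSeq GRCm38.p6. Promoter windows were given there for 7 members and none for *H19* and *Cdkn1c*.

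Cells were kept with at least 500 genes and at most 10% mitochondrial UMIs. Doublets were not removed in the reported values. Counts were summed per gate and divided to CPM. Poisson, Clopper-Pearson and conditional binomial 95% intervals cover counting error only. A difference was counted at 1.5-fold among genes of at least 10 CPM in 1 library, and no test was possible with 1 library a stage. The members and lists were chosen with earlier results of these data known. Named were the members, list genes past the fold or else of highest CPM, with a few others chosen after their values were seen, and the 3 most similar genes. 8 alternatives were tried: removal of doublets scored by Scrublet (scanpy 1.11.5), a mitochondrial maximum of 5%, at least 1000 genes, removal above the 99th percentile of genes, at least 2 *Pdgfra* UMIs, per-cell CPM, TMM (edgeR 4.0.16) and equal strata. The ratio and interval code was tested on simulated data. Python 3.11.15, numpy 2.4.6 and scipy 1.17.1 were used.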

Additional observations from a re-analysis of the deposited data

Results flagged for a closer look

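In 3 members the counting intervals of the adult over puberty ratio lay wholly on opposite sides of 1 in different subsets of *Pdgfra*+ cells. The difference between subsets was not tested, since each rests on the same 2 libraries. *Cdkn1c* gave 1.55 in *Gdf10* or *Fmo2* cells and 0.856 in *Thbs4* or *Bmp5* cells. *Ndn* gave 1.25 in *Pi16*+*Dpp4*+ cells and 0.878 in *Fabp4* cells. *Zim1* gave 1.57 in *Pi16*+*Dpp4*+ cells and 0.467 in *Thbs4* or *Bmp5* cells. Of the adult *Gdf10* or *Fmo2* cells, 1324 also carried *Crabp1*, against 110 at puberty.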

How the results depend on the processing

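No paired analysis was possible because each stage has 1 library. Over the 8 alternatives the adult over puberty ratio in *Pdgfra*+ cells ranged from 0.265 to 0.402 for *H19*, 0.452 to 0.556 for *Plagl1*, 0.687 to 0.860 for *Grb10*, 0.638 to 0.790 for *Peg3*, 0.443 to 0.808 for *Mest* and 1.18 to 1.49 for *Cdkn1c*, each on 1 side of 1. *Ndn* (0.982 to 1.09) and *Zim1* (0.772 to 1.21) crossed it. The median ratio of the members was 0.797 as reported, 0.723 with TMM and 0.705 with equal weight for 6 strata. Equal weight by construction evens out the shares of the 6 disjoint strata. With it 4 members were at least 1.5-fold lower, *Peg3* (0.638) and *Mest* (0.443) joining. The strata were cut in the order of the subsets, each from the cells left over. Shares of overlapping cells inside a stratum, such as *Crabp1* cells with *Gdf10* or *Fmo2*, were not evened out. The lists were put through the TMM and equal-weight alternatives after the data were seen. IGF pathway genes higher past the fold went from 4 to 2 with TMM and 0 with equal weight. Kinase inhibitors and partners went from 2 higher to 1 and 0, and from 0 lower to 1 with TMM. With genes of at least 1 CPM as background, 17.7% of 13604 genes were higher and 6.97% lower. The subset ratios past 1.5-fold in both libraries stayed past it in the alternatives run on them, and thinned shares moved with the depth chosen. Intervals cover counting error only, and neither the spread between animals nor the uneven *H19* counts of single cells.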
